A study of Mus musculus with 20 samples.

Results

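The genes described here are 8 genes of steroid-induced skeletal muscle wasting, measured by RNA-seq in mouse tibiae. They are Fbxo32, Trim63, Foxo1, Foxo3, Mstn, Klf15, Ddit4 and Eif4ebp1. They were chosen by symbol from the 54446 genes of the count table, and each symbol matched 1 gene identifier. The libraries came from tibiae of 3-month-old male C57BL/6J mice, in 4 groups of 5 libraries. The labels name the tissue only as tibia, the study speaks of cortical bone with its periosteum, and neither says whether marrow was removed. Mice received DEX (dexamethasone, a synthetic glucocorticoid) at 1 mg/kg, or water as vehicle, by subcutaneous injection for 5 days. The left tibia was loaded along its axis at -13 N for 40 cycles per session, on days 1 and 3 according to the labels, and the right tibia was not loaded. The study's own text describes more sessions, the last of them later and shortly before collection, so the time between the last load and collection is not settled here. The sources do not say which left and right tibiae belong to the same mouse, so p-values measure the spread between libraries.

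In skeletal muscle, glucocorticoids bind the glucocorticoid receptor and shift the balance of protein turnover toward breakdown. Fbxo32 (atrogin-1) and Trim63 (MuRF1) encode muscle ubiquitin ligases that mark proteins for the proteasome, and Foxo1 and Foxo3 encode forkhead transcription factors that switch both ligases on. Mstn encodes myostatin, a secreted inhibitor of muscle growth made by muscle fibers. Klf15 encodes a transcription factor that the receptor induces and that drives amino acid breakdown. Ddit4 (REDD1) and Eif4ebp1 (4E-BP1) act on the synthesis side, the former as an inhibitor of the growth kinase complex mTORC1 and the latter as a repressor of translation that mTORC1 inactivates. Bone pulverized for RNA can carry marrow and attached muscle, so these genes can be read only beside the muscle content of each library.

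Library totals ranged from 4641437 to 13032018 counts. Levels are given as CPM, that is, counts scaled to a common library size after TMM normalization over all 20 libraries. CPM is not scaled for gene length, so levels are compared between libraries and not between genes. Because the study removed a data set called DEX-4 without naming the tibia, unloaded DEX replicate 4 was left out of the tests, and 4 unloaded DEX libraries remained. The labels number the vehicle samples 1 to 5, whereas the vehicle columns of the table are numbered 1, 2, 4, 5 and 6. The column numbered 6 in each vehicle group matched no label and is called unnumbered, and no column was assigned to the label numbered 3. As a check of the treatment, Fkbp5, a co-chaperone gene induced by glucocorticoids, was higher with DEX in loaded tibiae (log2 fold change 0.87, SE 0.17, adjusted p = 0.00777, edgeR quasi-likelihood test) and had a log2 fold change of 0.81 in unloaded tibiae (adjusted p = 0.0603). Zbtb16 rose in loaded tibiae (1.01, adjusted p = 0.0093), Sgk1 fell in unloaded tibiae (-0.63, adjusted p = 0.0318), and Tsc22d3 and Per1 did not pass in either comparison. Other tissues moved with DEX as well. The summed CPM of 7 neutrophil markers was 6857 to 16500 in loaded DEX and 4155 to 6124 in loaded vehicle libraries, that of 7 osteoblast markers was 3204 to 15290 and 42350 to 64000, that of 6 osteocyte markers was 674 to 1398 and 1499 to 2523, and that of 7 B cell markers was 27.0 to 96.6 and 122.2 to 260.7. In that comparison 6 neutrophil markers were higher, 6 osteoblast and 6 B cell markers were lower, and 4 osteocyte markers were lower and 1, Fgf23, was higher. In unloaded tibiae 5 neutrophil markers were higher, and 4 osteoblast, 3 osteocyte and 3 B cell markers were lower, with summed CPM over all 5 DEX libraries of 8574 to 15670 against 4835 to 7016 for neutrophils, 3970 to 23860 against 29670 to 98100 for osteoblasts and 898.8 to 1668 against 1804 to 2561 for osteocytes. Reads over 1965 olfactory and vomeronasal receptor genes, which bone and marrow are not known to use as a group, summed to 1097 to 6494 CPM in loaded DEX and 260.5 to 932.3 CPM in loaded vehicle libraries, and to 800.4 to 2918 CPM and 391 to 1364 CPM in the unloaded ones. All DEX libraries also had more genes with a count (34739 to 39972) than all vehicle libraries (28979 to 34259), and a larger share of values that were not whole numbers (12.3% or more against 11.8% or less). These features move with DEX beside the calls of Klf15, Ddit4 and Foxo1 given below. The part of these shifts in the results below was tested only for muscle content and for these receptor reads.

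Muscle was present in every library. The muscle score, the mean log2 CPM of Acta1 (skeletal actin), Ckm (muscle creatine kinase), Myh4 (the IIB myosin heavy chain) and Tnnt3 (fast troponin T), ranged over the 20 libraries from 7.39 in the left-out library to 12.06. Myh4 alone averaged 12590 CPM ± 6687 (SD, n = 5) in unloaded vehicle libraries and 3159 CPM ± 2860 (n = 4) in unloaded DEX libraries. The score was 9.25 ± 1.26 (SD, n = 4) in unloaded DEX and 11.28 ± 0.92 (n = 5) in unloaded vehicle libraries, a difference of -2.03 (2-sided exact permutation test, p = 0.0397, and the smallest p this design allows is 0.00794). That p was 0.0571 to 0.0857 in 8 of the 9 tests that left out 1 library, so the difference was at the edge of the spread between libraries. In loaded tibiae the score was 10.79 ± 0.65 with DEX and 10.19 ± 1.07 with vehicle (n = 5 each), a difference of 0.60 (exact permutation p = 0.294). In bulk RNA, fewer muscle fibers and less muscle RNA per fiber cannot be told apart.

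Sequences before the start site show what lay upstream of the members that the results turn on. RefSeq promoter entries on GRCm38.p6 were found for 6 of the 8 members, namely Foxo1, Trim63, Klf15, Mstn, Foxo3 and Ddit4. A set of 5 short motifs was searched on both strands of the 250 bases before the start site. The stretches of Trim63 at chr4:134314870-134315119 (plus strand), Klf15 at chr6:90462326-90462575 (plus strand) and Ddit4 at chr10:59951835-59952020 (minus strand, the 186 of the searched bases that lie outside the annotated gene) are given 5′ to 3′. The start site of the Ddit4 entry lies inside the annotated gene, and the search covered the 250 bases before that site. Capitals mark the receptor palindrome and the forkhead motif in Trim63 and the CACGTG boxes in Klf15.
Trim63: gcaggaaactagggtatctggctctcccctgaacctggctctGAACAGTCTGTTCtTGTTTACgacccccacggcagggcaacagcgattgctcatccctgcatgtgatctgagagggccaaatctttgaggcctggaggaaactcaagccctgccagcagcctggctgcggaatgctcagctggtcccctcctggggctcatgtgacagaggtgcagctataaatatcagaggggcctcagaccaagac
Klf15: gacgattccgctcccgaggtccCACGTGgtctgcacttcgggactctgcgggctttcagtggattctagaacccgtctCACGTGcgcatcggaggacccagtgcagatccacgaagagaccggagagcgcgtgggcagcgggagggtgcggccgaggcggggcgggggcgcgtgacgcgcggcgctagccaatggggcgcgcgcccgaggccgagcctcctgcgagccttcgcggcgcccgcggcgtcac
Ddit4: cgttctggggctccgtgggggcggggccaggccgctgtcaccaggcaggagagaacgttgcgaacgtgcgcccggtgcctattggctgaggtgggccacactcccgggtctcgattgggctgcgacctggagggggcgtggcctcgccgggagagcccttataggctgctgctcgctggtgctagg
In Trim63, a match to the palindromic glucocorticoid response element GNACANNNTGTNC lay 208 to 196 bases before the start site, and a match to the forkhead motif TGTTTAC lay 194 to 188 bases before it. Of 32851 promoter entries, 0.387% held the palindrome and 3.17% held the forkhead motif. Klf15 held CACGTG, the E-box of basic helix-loop-helix factors, 228 to 223 and 172 to 167 bases before the start site, and 6.02% of the entries held it. The Ddit4 stretch held none of the searched motifs. CAGCTG, the E-box of the myogenic factors, was found in Trim63 among the members (13% of the entries), and TATAAA, the TATA box, in Trim63 and Mstn (12.4%). These are matches of letters and show no binding.

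The ubiquitin ligases followed the muscle in the library and did not differ with DEX beyond the spread between libraries. Fbxo32 (GRCm38 chromosome 15, 58175879 to 58214932, minus strand) was 110.7, 64.6, 72.2, 95.7 and 66.0 CPM in unloaded vehicle libraries 1, 2, 4, 5 and unnumbered, and 142.6, 52.3, 63.1, 94.2 and 119.6 CPM in the loaded vehicle libraries in the same order. With DEX it was 45.5, 56.8, 49.8 and 78.6 CPM in unloaded libraries 1, 2, 3 and 5 (38.0 CPM in the left-out library), and 77.4, 206.1, 114.2, 84.7 and 93.2 CPM in loaded libraries 1 to 5. In all, 3 of the 4 unloaded DEX libraries were below every unloaded vehicle library, and replicate 5 overlapped with them. The log2 fold change of DEX over vehicle was -0.48 (SE 0.21, adjusted p = 0.191) in unloaded and 0.33 (SE 0.31, adjusted p = 0.455) in loaded tibiae. Without loaded DEX replicate 2, the library with 206.1 CPM, the latter value was -0.02.

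Trim63 (chromosome 4, 134315120 to 134329629, plus strand) spread more widely. It was 28.1, 8.17, 25.0, 32.6 and 8.25 CPM in unloaded vehicle libraries 1, 2, 4, 5 and unnumbered, and 32.3, 5.67, 12.1, 25.7 and 30.2 CPM in the loaded ones. With DEX it was 15.4, 5.29, 3.83 and 18.6 CPM in unloaded libraries 1, 2, 3 and 5 (1.58 CPM in the left-out library), and 10.7, 55.1, 33.5, 16.4 and 20.2 CPM in loaded libraries 1 to 5. The groups overlapped in both comparisons, with log2 fold changes of -0.88 (SE 0.52, adjusted p = 0.32) in unloaded and 0.40 (SE 0.47, adjusted p = 0.554) in loaded tibiae. The loaded value was -0.05 without loaded DEX replicate 2.

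Mstn (chromosome 1, 53061640 to 53068079, plus strand) had the lowest single count of the members, 10, and 10 to 105 counts per library. It was 4.91, 2.23, 6.91, 13.0 and 2.20 CPM in unloaded vehicle libraries and 9.57, 2.15, 2.75, 6.47 and 4.57 CPM in loaded vehicle libraries, in the order used above. With DEX it was 2.77, 1.13, 1.36 and 3.56 CPM in unloaded libraries (1.16 CPM in the left-out library) and 2.68, 8.23, 8.66, 4.25 and 5.53 CPM in loaded libraries. Unloaded DEX libraries were mostly low, and they overlapped with 2 unloaded vehicle libraries. The log2 fold change of DEX was -1.35 (SE 0.55, adjusted p = 0.154) in unloaded and 0.24 (SE 0.41, adjusted p = 0.689) in loaded tibiae.

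**Figure D1:**
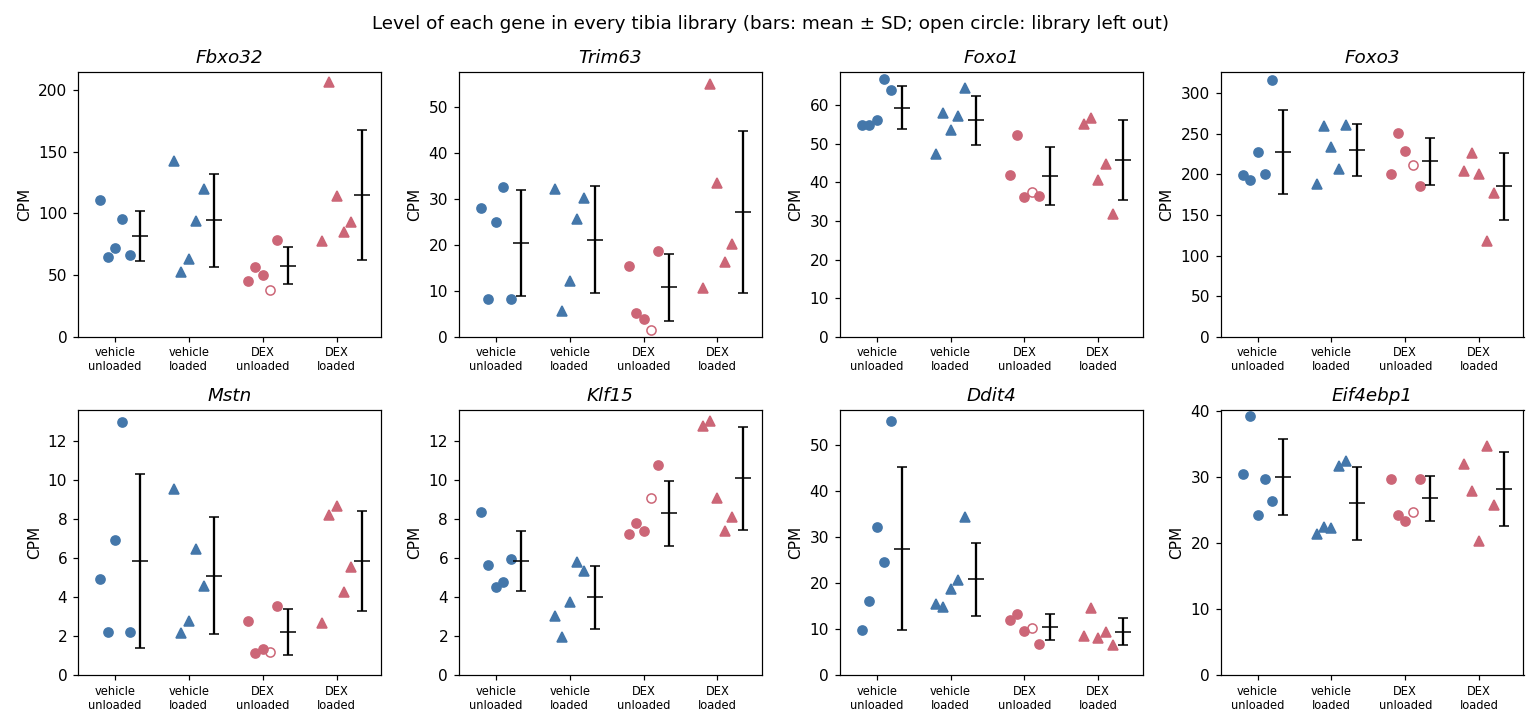
CPM of each of the 8 genes (vertical axes, linear from 0) in every library of the 4 groups, with filled points for the libraries tested, an open circle for unloaded DEX replicate 4, and bars for the mean ± SD of the tested libraries. Klf15 in loaded DEX libraries (7.40 to 13.0 CPM) lay above loaded vehicle libraries (1.95 to 5.82 CPM), Ddit4 lay below (6.61 to 14.5 against 14.8 to 34.2 CPM), and Fbxo32, Trim63 and Mstn overlapped between DEX and vehicle.

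Trim63, Mstn and Fbxo32 rose with the muscle content of the library. In a fit of all 4 groups over 23653 genes, with the muscle score as a covariate, 2.32% of the genes had a slope on the score at an adjusted p under 0.05 (2.27% positive). Trim63 had a slope of 0.96 (SE 0.11, adjusted p = 7.58e-06), Mstn 0.85 (SE 0.12, adjusted p = 9.97e-05) and Fbxo32 0.40 (SE 0.09, adjusted p = 0.00831), in log2 CPM per log2 unit of the score within groups. A slope of 1 means a level proportional to the muscle genes. As a yardstick, 8 muscle genes that are not in the score, among them Tnnc2, Actn3 and Ryr1, had slopes of 0.91 to 1.09. Trim63 was within the range of the yardstick genes, Mstn was slightly below it, and Fbxo32 was farthest below it, and the differences between slopes were not tested. The slopes of the other 5 members ranged from -0.18 (Ddit4) to 0.18 (Klf15) and did not pass the test (lowest adjusted p = 0.752). All 3 slopes that passed did so in each of the 19 fits that left out 1 library.

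Klf15 and Ddit4 were the members that changed with DEX in loaded tibiae. They are 2 of the 8 members, a share close to the background, since 21.3% of the 19780 genes tested were called in that comparison (12.9% higher, 8.35% lower). Klf15 (chromosome 6, 90462576 to 90475238, plus strand) was 12.8, 13.0, 9.08, 7.40 and 8.13 CPM in loaded DEX libraries 1 to 5, and 3.01, 1.95, 3.75, 5.82 and 5.35 CPM in loaded vehicle libraries 1, 2, 4, 5 and unnumbered. Every loaded DEX library was above every loaded vehicle library, and 16.5% of all genes had groups that did not overlap, in either direction. The log2 fold change was 1.38 (SE 0.29, fold 2.61, adjusted p = 0.00932). In unloaded tibiae, Klf15 was 7.24, 7.77, 7.41 and 10.8 CPM with DEX (9.07 CPM in the left-out library) and 8.35, 5.62, 4.50, 4.76 and 5.94 CPM with vehicle. Unloaded vehicle replicate 1 lay within the DEX range, and the log2 fold change of 0.54 (SE 0.23, adjusted p = 0.166) did not pass. The difference between the log2 fold changes in loaded and unloaded tibiae, tested as the interaction, was 0.81 (SE 0.38, adjusted p = 0.41). Of 7 adipocyte markers, 3 were higher with DEX in loaded tibiae, with a summed CPM of 129.4 to 323.1 against 117.6 to 295.6, and 0 were called with the muscle score as a covariate. Their part in the Klf15 values was not tested.

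Ddit4 (chromosome 10, 59949669 to 59951834, minus strand), which glucocorticoids raise in muscle, was lower with DEX. It was 8.59, 14.5, 8.12, 9.45 and 6.61 CPM in loaded DEX libraries 1 to 5, and 15.5, 14.8, 18.8, 20.7 and 34.2 CPM in the loaded vehicle libraries, without overlap. The highest DEX value and the lowest vehicle value, both of replicate 2, were 14.5 and 14.8 CPM. The log2 fold change was -1.09 (SE 0.26, fold 0.469, adjusted p = 0.0138). In unloaded tibiae, Ddit4 was 12.1, 13.2, 9.51 and 6.84 CPM with DEX (10.3 CPM in the left-out library) and 9.68, 16.0, 32.2, 24.5 and 55.1 CPM with vehicle. Unloaded vehicle replicate 1 lay within the DEX range. The vehicle libraries spread more than in loaded tibiae, and the log2 fold change of -1.39 (SE 0.41) had an adjusted p of 0.0617. It was -0.98 without the unnumbered vehicle library, the one with 55.1 CPM, -1.62 without vehicle replicate 1 (adjusted p = 0.0254) and -0.60 with the replicate number as a block. The interaction of DEX and loading on Ddit4 was 0.27 (SE 0.51, adjusted p = 0.78).

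Both calls in loaded tibiae were made in 10 of 10 fits that left out 1 library, with adjusted p-values of 0.00799 to 0.0285 for Klf15 and 0.00474 to 0.0314 for Ddit4. Both were lost when the receptor reads entered the fit as a covariate, with log2 fold changes of 1.35 (adjusted p = 0.243) and -0.82 (adjusted p = 0.439). The receptor reads did not overlap between the loaded groups, so they and DEX cannot be told apart there. With the replicate number as a block, which uses the libraries whose number both groups share, Ddit4 had a log2 fold change of -0.86 and an adjusted p of 0.0591. DEX and vehicle were given to different mice, so a shared number pairs no animal in this block or in that of unloaded tibiae.

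The forkhead genes moved little. Foxo1 (chromosome 3, 52268336 to 52353221, plus strand) was 54.8, 54.9, 56.1, 66.8 and 63.9 CPM in unloaded vehicle libraries, and 42.0, 52.2, 36.2 and 36.4 CPM in unloaded DEX libraries (37.4 CPM in the left-out library). Every DEX library was below every vehicle library. The log2 fold change was -0.50 (SE 0.13, fold 0.709, adjusted p = 0.0475), the only member among the 8 called in unloaded tibiae, where 6.84% of 19738 genes were called (2.86% higher, 3.99% lower) and the groups of 10.8% did not overlap. The call held in 1 of 9 fits that left out 1 library (without unloaded DEX replicate 2), and the adjusted p was 0.0544 to 0.177 in the other 8. It was also lost with the receptor reads as a covariate (-0.45, adjusted p = 0.0597), without the filter on low counts (-0.56, adjusted p = 0.0773) and with the replicate number as a block (-0.44, adjusted p = 0.261). In loaded tibiae Foxo1 ranged from 31.8 to 56.7 CPM with DEX and from 47.2 to 64.4 CPM with vehicle (log2 fold change -0.25, SE 0.16, adjusted p = 0.254).

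Foxo3 (chromosome 10, 42181841 to 42276755, minus strand) ranged from 185.9 to 250.2 CPM in unloaded DEX, 192.8 to 316.1 CPM in unloaded vehicle, 118.1 to 226.4 CPM in loaded DEX and 188.3 to 260.2 CPM in loaded vehicle libraries. The log2 fold changes of DEX were -0.06 (SE 0.17, adjusted p = 0.867) in unloaded and -0.27 (SE 0.17, adjusted p = 0.27) in loaded tibiae. Eif4ebp1 (chromosome 8, 27260329 to 27276674, plus strand), the translation repressor, had nearly level group means, 26.8, 30.0, 28.2 and 26.1 CPM in the same order, with SDs of 3.43 to 5.73 CPM. Its log2 fold changes of DEX were -0.15 (SE 0.16, adjusted p = 0.598) and 0.15 (SE 0.18, adjusted p = 0.553). Repression by 4E-BP1 is set by phosphorylation, which RNA counts do not measure.

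Muscle content was then entered as a covariate in each comparison of groups. In unloaded DEX libraries 1, 2 and 3 the score (9.39, 8.39 and 8.24) was below every unloaded vehicle library (9.86 to 12.06). Only replicate 5 (10.97) overlapped with vehicle, so DEX and muscle content can hardly be told apart in unloaded tibiae. In unloaded tibiae, where the score was lower with DEX, the log2 fold change of Trim63 went from -0.88 to 0.84 (SE 0.37, adjusted p = 0.342), that of Mstn from -1.35 to 0.25 (SE 0.56, adjusted p = 0.908) and that of Fbxo32 from -0.48 to 0.04 (SE 0.23, adjusted p = 0.965). None of these adjusted values passed the test. Ddit4 had -2.18 (SE 0.45, adjusted p = 0.044) and was the only member called, where 1.36% of the genes were called (0.334% higher, 1.03% lower). That call was lost in 5 of 9 fits that left out 1 library. The highest adjusted p, 0.349, came without unloaded vehicle replicate unnumbered (the library with 55.1 CPM), where the log2 fold change was -1.46. In the other lost fits the log2 fold change was -2.51 to -2.16. The value of -2.51 came without unloaded DEX replicate 5 (adjusted p = 0.304), where 0 genes were called. With all 20 libraries Ddit4 had -2.14 (adjusted p = 0.0608). Foxo1 had -0.61 (SE 0.20, adjusted p = 0.181).

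In loaded tibiae the adjustment left Klf15 at 1.29 (SE 0.30, adjusted p = 0.0159) and Ddit4 at -1.20 (SE 0.28, adjusted p = 0.0154), where 19.8% of the genes were called (11.8% higher, 8.03% lower). Fbxo32 went from 0.33 to -0.00 (SE 0.21), Trim63 from 0.40 to -0.21 (SE 0.26) and Mstn from 0.24 to -0.20 (SE 0.22), with adjusted p-values of 0.525 to 0.99. Ddit4 was called in each of the 10 fits that left out 1 library. The call of Klf15 was lost without loaded DEX replicate 1 (0.94, adjusted p = 0.0774) and without loaded vehicle replicate 1 (1.05, adjusted p = 0.0676), and was made in the other 8.

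**Figure D2:**
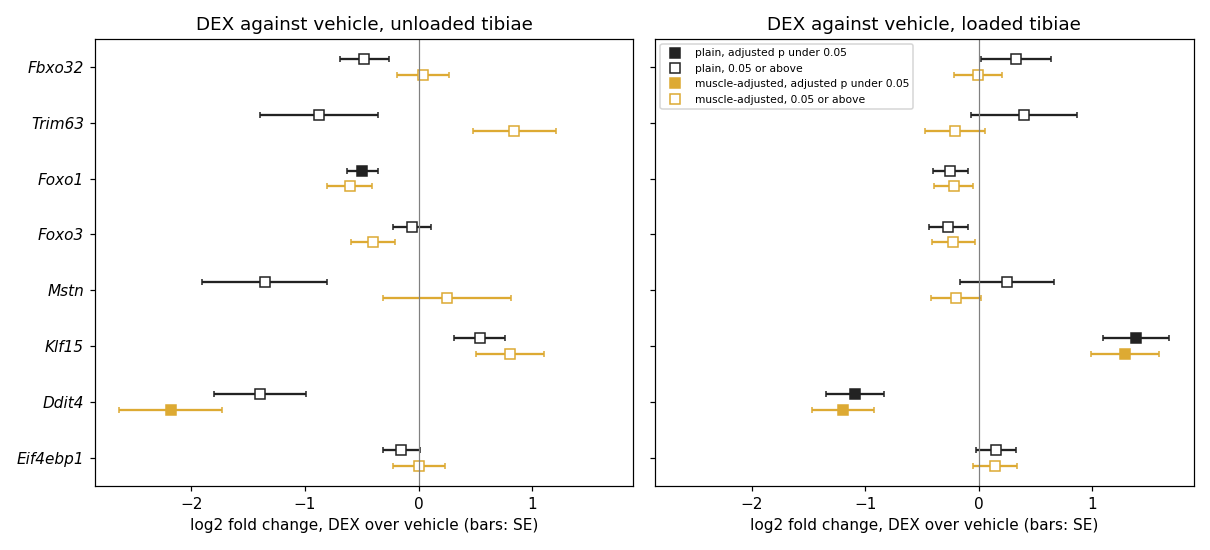
Log2 fold change of DEX over vehicle (horizontal axes, bars for SE) of the 8 genes in unloaded (left) and loaded (right) tibiae, without (black) and with (yellow) the muscle score as a covariate, filled where the adjusted p was under 0.05. Klf15 (1.38 and 1.29) and Ddit4 (-1.09 and -1.20) stay apart from 0 in loaded tibiae, whereas Trim63 in unloaded tibiae moves from -0.88 to 0.84.

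As a more literal form of a level per muscle, the muscle score was subtracted from log2 CPM. Trim63 lay between -7.78 and -6.78 in unloaded vehicle libraries, between -6.73 and -5.42 in unloaded DEX, between -6.56 and -5.36 in loaded vehicle and between -6.54 and -5.63 in loaded DEX libraries. The unloaded vehicle libraries overlapped neither with unloaded DEX nor with loaded vehicle libraries, and the ratios of 3.47% and 0.328% of all genes did not overlap in these comparisons. The gap to the unloaded DEX libraries was narrow, and neither change of the Trim63 ratio passed the test. Fbxo32 lay between -5.47 and -3.81 in unloaded vehicle and between -4.67 and -2.56 in unloaded DEX libraries, and Mstn between -9.71 and -8.24 and between -9.05 and -7.58, with overlap in both genes. A ratio to muscle moves all genes when the muscle moves. Across all genes the median log2 change of this ratio with DEX was 2.12 in unloaded and -0.77 in loaded tibiae, and 87.1% and 1.01% of the genes were called. Trim63 had 1.09 (SE 0.77, adjusted p = 0.162) and Mstn 0.75 (SE 0.81, adjusted p = 0.362) in unloaded tibiae, below that median. The median of the 8 yardstick muscle genes was 0.06 there, so both values lay above that of muscle genes. The difference from muscle genes was not tested. Fbxo32 (1.64), Foxo1 (1.62), Foxo3 (1.96), Klf15 (2.53) and Eif4ebp1 (1.87) were called, with adjusted p-values of 0.00899 to 0.0418, and these 5 of 8 members are a smaller share than that of all genes. No member was called in loaded tibiae, where Klf15 had 0.90 (SE 0.67) and Ddit4 -1.83 (SE 0.64, adjusted p = 0.142).

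**Figure D3:**
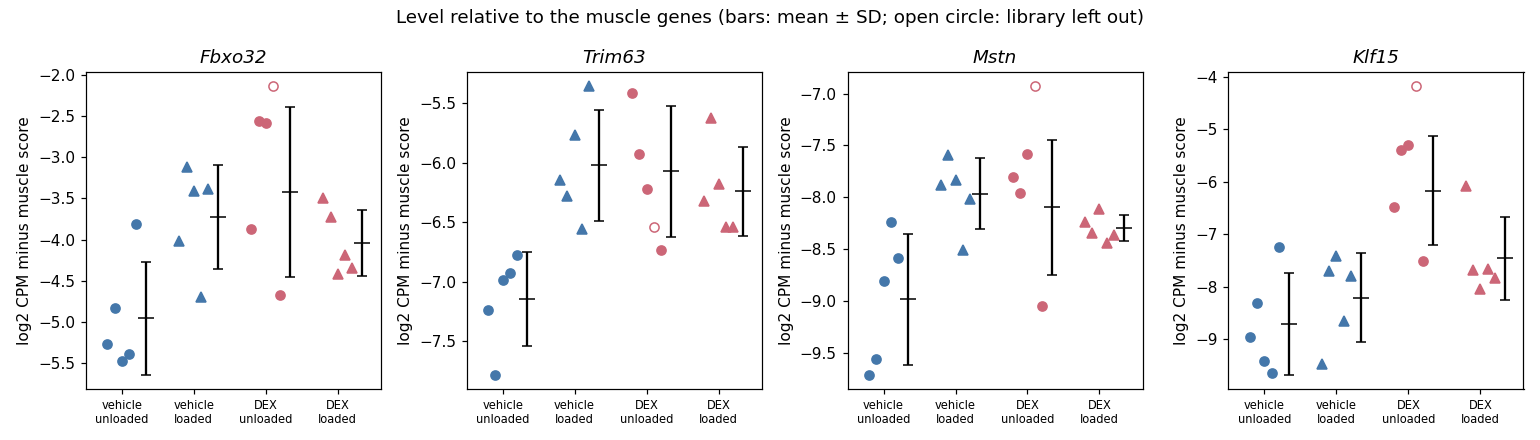
Log2 CPM minus the muscle score (vertical axes) of Fbxo32, Trim63, Mstn and Klf15 in every library of the 4 groups, with bars for the mean ± SD of the tested libraries and an open circle for unloaded DEX replicate 4. Trim63 in unloaded vehicle libraries (-7.78 to -6.78) lies just below unloaded DEX (-6.73 to -5.42), without overlap as in 3.47% of all genes and without passing the test (adjusted p = 0.162). Klf15 with DEX in unloaded tibiae (-7.51 to -5.30) overlaps little with vehicle (-9.64 to -7.24). Its change of 2.53 stands beside a median of 2.12 over all genes, of which 87.1% were called.

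Loading called no member in either treatment in the fit of levels, nor did any gene pass across the table (0% called), whereas 9.86% of 17982 genes in vehicle and 4.25% of 22541 genes in DEX had an unadjusted p under 0.05. The DESeq2 Wald test called 141 genes in vehicle and 0 in DEX, none of them a member. Without unloaded DEX replicate 5, 39 genes but no member were called for loading in DEX. With vehicle, no member had an unadjusted p under 0.05, and the log2 fold changes of loaded over unloaded tibiae ran from -0.59 (Klf15, SE 0.30) to 0.17 (Fbxo32, SE 0.26). With DEX, the muscle-linked members had the largest values. Mstn had 1.38 (SE 0.44), Trim63 1.31 (SE 0.51) and Fbxo32 0.97 (SE 0.30), with unadjusted p under 0.05 in these 3 of 8 members and an adjusted p of 0.733 each. The muscle score was 1.54 higher in the loaded DEX libraries (exact permutation p = 0.0635), and with the score as a covariate the values were 0.31 (SE 0.42), -0.15 (SE 0.39) and 0.37 (SE 0.36). With vehicle, the score was 1.09 lower in loaded libraries (exact permutation p = 0.119, n = 5 each). With the score as a covariate there, Trim63 had 1.05 (SE 0.27, unadjusted p = 0.00234, adjusted p = 0.252), Fbxo32 0.58 (SE 0.18, adjusted p = 0.435) and Mstn 0.78 (SE 0.35, adjusted p = 0.733), where 0.0945% of the genes were called. The DESeq2 Wald test on the same model called 161 genes, against 17 with edgeR. Trim63 was among the 161 (1.06, adjusted p = 0.0328), and its adjusted p ran from 0.149 to 0.803 in the edgeR fits that left out 1 library.

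As a ratio to muscle, loading in DEX called 4 of the 8 members, all lower in loaded tibiae, where 52.2% of the genes were called and the median over all genes was -1.70. They were Foxo3 (-2.09, SE 0.64, adjusted p = 0.0143), Ddit4 (-2.07, SE 0.71, adjusted p = 0.0148), Foxo1 (-1.65, SE 0.65, adjusted p = 0.0263) and Eif4ebp1 (-1.56, SE 0.65, adjusted p = 0.0352), so their values lay near that median. Trim63 (-0.18), Mstn (-0.17), Fbxo32 (-0.84) and Klf15 (-1.35) were not called. With vehicle the ratio of no member was called, where 0.0334% of the genes were called and the median was 1.13, and Trim63 had 1.12 (SE 0.70, adjusted p = 0.219). The median of the 8 yardstick muscle genes was -0.15 for loading in vehicle and 0.10 for loading in DEX.

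The interaction, which asks whether DEX acted differently in loaded and unloaded tibiae, called none of the 23653 genes at the adjusted threshold and 12.1% at an unadjusted p under 0.05. The count was 54 without unloaded DEX replicate 5, 6 without the unnumbered unloaded vehicle library and 50 with the DESeq2 Wald test, and no member was among them. The members with the largest values were Mstn (1.57, SE 0.73), Trim63 (1.24, SE 0.77), Klf15 (0.81, SE 0.38) and Fbxo32 (0.77, SE 0.42), with adjusted p-values of 0.41 to 0.448. With the muscle score as a covariate, Trim63 had -1.20 (SE 0.48, adjusted p = 0.601) and Mstn -0.58 (SE 0.52, adjusted p = 0.654).

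The genes whose log2 CPM was most like each member over the 20 libraries, by Pearson's r, differed by member. The libraries share depth, treatment and tissue mixture, so these values are a description. Trim63 was most like Des (0.94), Mybpc2 (0.93) and Actn3 (0.92), which encode desmin, a fast myosin-binding protein and a fast-fiber actinin. Mstn was most like Mybpc2 (0.93), Synm (0.92) and Trim63 (0.91), and Fbxo32 most like Myh14 (0.89), Trim63 (0.87) and Tacc2 (0.86). Foxo1 was most like Ms4a1 (0.92), Ikzf3 (0.91) and Jakmip1 (0.91). The first 2 are genes of lymphoid cells, and Ms4a1 is in the B cell list above, whose summed CPM was 25.0 to 143.4 in unloaded DEX and 155.5 to 240.3 in unloaded vehicle libraries. The part of B cells in the Foxo1 values was not tested. Ddit4 was most like Nhsl1 (0.94), Cdkn1a (0.93), a cell cycle inhibitor gene, and Pald1 (0.92). Klf15 was most like Cntfr (0.87), Gsta3 (0.85) and Galnt15 (0.85), Foxo3 like Brpf3, Fzr1 and Hectd4 (0.94 each), and Eif4ebp1 like Psmg4 (0.84), Wdr89 and Atp6v1f (0.83 each).

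Other genes of the same pathways were read from lists that do not contain the members. Their counts stand beside 21.3% of all genes called in loaded tibiae (12.9% higher, 8.35% lower) and 6.84% in unloaded tibiae (2.86% higher, 3.99% lower), and a count near these shares is no result about a list. Of 16 other muscle ubiquitin ligases and deubiquitinases, 1 rose and 3 fell with DEX in loaded tibiae and 0 rose and 1 fell in unloaded tibiae, with median log2 fold changes of -0.05 and -0.13 beside 0.00 and 0.03 over all genes. Both counts were close to the shares of all genes. Nedd4 fell in both (-0.75, SE 0.18, adjusted p = 0.0144, and -0.57, SE 0.14, adjusted p = 0.0331), Cblb (-0.52) and Trim32 (-0.51) fell in loaded tibiae, and Nedd4l (0.37) rose. Of 13 autophagy genes that FOXO factors switch on, none changed in loaded tibiae, and Map1lc3a (-0.96, SE 0.21, adjusted p = 0.0209) and Sesn3 (-0.46, SE 0.12, adjusted p = 0.038) fell in unloaded tibiae.

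Among 12 genes of the FOXO family and its insulin and IGF1 input, Igf1, the growth factor that restrains FOXO through AKT, fell in both comparisons. It averaged 52.6 CPM ± 14.3 in loaded DEX and 196.6 CPM ± 98.7 in loaded vehicle libraries (SD, n = 5 each, log2 fold change -1.86, SE 0.30, adjusted p = 0.00274). In unloaded tibiae it averaged 46.3 CPM ± 8.69 (n = 4) with DEX and 94.9 CPM ± 24.8 (n = 5) with vehicle (-1.02, SE 0.19, adjusted p = 0.0139). Irs1 (-0.53), an insulin receptor substrate, fell and Igf1r (0.70), the IGF1 receptor, rose in unloaded tibiae. Igf1 was the only gene of this list that changed in loaded tibiae. Among 13 genes of mTORC1 and translation initiation, none changed in loaded tibiae, and Ddit4l, a paralog of Ddit4, fell in unloaded tibiae (-1.26, SE 0.25, adjusted p = 0.0161).

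Of 15 genes of the myostatin and activin pathway, 3 rose in loaded tibiae, namely Wfikkn2 (1.57, SE 0.45, adjusted p = 0.029), a secreted antagonist of myostatin, Inhbb (0.87), an activin subunit, and Acvr1b (0.57), a type I receptor. That count was close to the 21.3% of all genes. Inhba (0.90) rose in unloaded tibiae, and none fell in either. After adjustment for the muscle score, Wfikkn2 and Inhbb stayed called in loaded tibiae, Acvr1b did not (0.49, adjusted p = 0.0598), and Gdf11, a close relative of Mstn, was lower (-0.52, SE 0.15, adjusted p = 0.0327, against -0.32 and 0.254 without the covariate). Of 9 genes of amino acid breakdown linked to KLF15, Prodh, proline dehydrogenase, rose in both loaded (0.99, SE 0.16, adjusted p = 0.00277) and unloaded (0.66, SE 0.17, adjusted p = 0.0359) tibiae, and the other 8 did not pass in either. Its means were 31.0 CPM ± 5.74 with DEX and 16.1 CPM ± 2.43 with vehicle in loaded tibiae (SD, n = 5 each).

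Of 10 other genes of muscle atrophy, 4 rose and 1 fell in loaded tibiae and 3 rose in unloaded tibiae, where 21.3% and 6.84% of all genes were called. Mt1 (0.85 and 0.99) and Mt2 (1.45 and 1.62), which encode metallothioneins, and Glul, glutamine synthetase (0.59 and 0.61), rose in both. Cebpd (0.55) rose and Angptl4 (-1.23) fell in loaded tibiae. Hsd11b1, which regenerates active glucocorticoid, rose in loaded tibiae (1.15, SE 0.21, adjusted p = 0.0055). With the muscle score as a covariate, no gene of the ligase, autophagy, FOXO, mTORC1, myostatin and KLF15 lists was called in unloaded tibiae, where 1.36% of all genes were. Of the 10 other atrophy genes, Mt1 (1.46, SE 0.25, adjusted p = 0.0298) and Mt2 (2.33, SE 0.51, adjusted p = 0.0499) were called there. In loaded tibiae the covariate left 0 higher and 3 lower among the 16 ligases, 1 lower (Igf1) in the FOXO list, 1 higher (Prodh) in the KLF15 list, none in the autophagy and mTORC1 lists, and 4 higher and 1 lower among the 10 other atrophy genes, where 19.8% of all genes were called.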

How the data were processed

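The authors deposited expected counts per gene from RSEM for 54446 genes in 20 libraries, not scaled for library size. Per the labels, reads were aligned with STAR 2.7.10a and counted with RSEM 1.2.28 on GRCm38, from libraries of a stranded total RNA kit for low input (SMARTer Pico v2). Here values were rounded, since 10.6% to 14.0% of them in a library were not whole. Totals of 4641437 to 13032018 counts set the counting error, and replicates of a group differed by 8.82 to 112.8 times counting error (chi-square per gene).

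Tests used R 4.3.3 and edgeR 4.0.16, with filterByExpr on the groups compared, TMM normalization, the quasi-likelihood F test, and Benjamini-Hochberg adjustment over all genes tested at 0.05. SE is the size of the log2 fold change over the root of F. The filter kept 17982 to 23653 genes and all 8 members in each comparison, and kept 22659 genes in all 20 libraries for CPM (prior count of 2 for log2). Muscle content entered as a covariate or as an offset. The scores were compared with 2-sided exact permutation tests. Alternatives were the DESeq2 1.42.0 Wald test (the study's test), its size factors, other filters, a second score of 8 muscle genes, the receptor reads as a covariate, the replicate number as a block, all 20 libraries and each library left out. Positions are from GENCODE M21, in which 54409 identifiers matched without their version.

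The members, the gene lists, the rule for naming genes and the tests were chosen with earlier results of these data known. Named are all members, the score genes, 5 glucocorticoid-induced genes, up to 3 genes a direction with the lowest p from each pathway list, and the 3 genes most like each member. Hsd11b1 and Mt1 in loaded tibiae and the yardstick muscle genes are named from the same lists, and Gdf11 and Fgf23 were named after their values were seen.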

Additional observations from a re-analysis of the deposited data

Results flagged for a closer look

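In each group of 4 or 5 libraries, the highest and lowest value of every member and of the muscle score were compared with the other values by Dixon's criterion at 95%. Of 36 such sets, 3 had a library farther out than the criterion allows, and chance gives about 1 in 20. Fbxo32 was 206.1 CPM in loaded DEX replicate 2, with a gap of 0.71 of the group's range to the next library. That library also had the highest Trim63 value and the highest muscle score of its group. Foxo3 was 316.1 CPM in the unnumbered unloaded vehicle library (gap 0.72 of the range), which also had the highest Ddit4 value of all libraries. Klf15 was 10.8 CPM in unloaded DEX replicate 5 (gap 0.85 of the range), the library with the highest muscle score of its group. The causes were not tested.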

How the results depend on the processing

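Of the single-member values under the alternatives, 870 kept their direction and their side of the threshold, 25 lost a call, 6 gained one and 50 changed direction. None of those 50 had been called. With DEX in loaded tibiae, 2 members were called, 0 with the receptor reads as a covariate, 1 with the replicate block, and 2 in every fit that left out 1 library. In unloaded tibiae 1 member was called, 2 with the DESeq2 Wald test, with all 20 libraries and with the 4 groups fitted together (Ddit4 beside Foxo1), 1 without the filter, where it was Ddit4 (-1.48, adjusted p = 0.00349) in place of Foxo1 (adjusted p = 0.0773), 0 with the receptor reads or the replicate block, and 0 to 1 with each library left out. With the muscle score as a covariate, loaded tibiae gave 2 members, 0 with the receptor reads and 1 to 2 with each library left out (Klf15 lost in 2 of 10 fits, Ddit4 never), and unloaded tibiae gave 1, 0 with the receptor reads or all 20 libraries and 0 to 1 with each library left out. Loading in vehicle gave 0 with that covariate and 1 (Trim63) with DESeq2, where 17 and 161 of all genes were called. As a ratio to the second muscle score, 1 member was called in loaded tibiae (0 with the first score) and 3 in unloaded tibiae (5 with the first), and loading in DEX gave 4 with either score and 5 with all 20 libraries. With the first score 1.01%, 87.1% and 52.2% of all genes were called in these comparisons. The shares with the second score and with all 20 libraries were not recorded, so those member counts stand without a background. The difference of the muscle score, with each library left out, ran from -2.61 to -1.70 for DEX in unloaded tibiae (exact permutation p of 0.0571 to 0.0857 in the 8 fits that lost the call), from 0.26 to 0.87 for DEX in loaded tibiae, from -1.44 (exact permutation p = 0.0476, without the unnumbered unloaded vehicle library) to -0.75 for loading in vehicle and from 1.21 to 2.12 (exact permutation p = 0.0179, without unloaded DEX replicate 5) for loading in DEX. Neither passed with all tested libraries. Loading in DEX was 1.91 with all 20 libraries (exact permutation p = 0.0317) and 1.96 when the loaded library of DEX replicate 4 was dropped and the unloaded one kept (exact permutation p = 0.0397).

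The counts of genes moved more than those of members. With DEX in loaded tibiae, 4206 genes were called, 9016 without the filter, 8446 with all 4 groups, 2326 with the block, 2203 with at least 10 counts in every library and 31 with the receptor reads. In unloaded tibiae 1351 were called, 2922 with all 20 libraries, 2657 with the receptor reads, 2411 with DESeq2, 520 with the block and 129 without unloaded DEX replicate 3. With the muscle score as a covariate, the ranges were 78 to 9191 around 3925 in loaded and 0 to 812 around 269 in unloaded tibiae, the 0 without unloaded DEX replicate 5. DESeq2 called 141 genes for loading in vehicle, 0 for loading in DEX and 50 for the interaction, against 0 each. Without the filter these counts were 50, 0 and 1, and with each library left out 0 to 4, 0 to 39 and 0 to 54, both of the latter highest without unloaded DEX replicate 5. The causes were not tested.

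The uncalled members changed direction under these settings. With the receptor reads as a covariate, the log2 fold change of DEX in loaded tibiae was 0.10 for Foxo3 and -0.16 for Eif4ebp1 (-0.06 for Eif4ebp1 without the filter), and in unloaded tibiae 0.13 for Foxo3 (0.10 with the replicate block). With the muscle score and the receptor reads in loaded tibiae, it was 0.57 for Fbxo32, 0.39 for Trim63, 0.20 for Foxo3, 0.09 for Mstn and -0.19 for Eif4ebp1. With the muscle score alone, Fbxo32 was 0.00 with DESeq2 or its size factors and 0.12 with at least 10 counts in every library, and Eif4ebp1 was -0.09 without the filter. In unloaded tibiae with the muscle score, Eif4ebp1 was -0.04 without the filter, -0.12 with the receptor reads and -0.03 with all 20 libraries, and Fbxo32 was -0.01 without the filter. With the replicate block, loading in vehicle was -0.07 for Fbxo32 and -0.44 for Trim63. With each library left out, the changes of direction lay in these ranges. For DEX in loaded tibiae, Fbxo32 ran from -0.02 to 0.49 and Trim63 from -0.05 to 0.59, and with the muscle score Fbxo32 ran from -0.26 to 0.05 and Eif4ebp1 from -0.02 to 0.24. For DEX in unloaded tibiae, Foxo3 ran from -0.14 to 0.09, and with the muscle score Fbxo32 ran from -0.14 to 0.18, Mstn from -0.06 to 1.03 and Eif4ebp1 from -0.16 to 0.20. For loading in DEX with the muscle score, Mstn ran from -0.58 to 0.54 and Trim63 from -1.35 to 0.15. For loading in vehicle, Fbxo32 ran from -0.01 to 0.33, Trim63 from -0.17 to 0.29 and Mstn from -0.56 to 0.32. The slope of Ddit4 on the muscle score ran from -0.28 to 0.01.

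Same-numbered libraries did not deviate together in every pair. The correlation of their deviations from the group means was -0.30 to 0.25 for the 4 vehicle pairs and 0.02 to 0.36 for the 4 DEX pairs, so the numbers were not taken as pairs. With the replicate block, Klf15 in loaded tibiae had an adjusted p of 0.0261 and Ddit4 of 0.0591. Mstn had the lowest single count of the members, 10, and 10 to 105 per library. Klf15 had fewer counts than Mstn in some vehicle libraries, such as unloaded vehicle replicate 5 (37 against 101).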
